A study of Mus musculus with 477 samples.

Results

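Wap, Lalba and Glycam1 code for milk proteins that are not caseins, and the levels of these 3 genes were read from a table of 21004 genes in single mammary cells. The genes were chosen by name, as the whey and mucin genes of late milk, and all 3 had reads. Mammary luminal cells and mammary tumor cells had been captured 1 by 1 with the Fluidigm C1 system, whose microfluidic chips make full-length cDNA in a separate chamber for each cell. The data hold 477 cells in 10 groups, taken here as those of 11 female mice, and the mouse was the replicate.

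The mice carried floxed alleles deleted by Cre under the MMTV promoter, which is active in mammary epithelium, and were of mixed C57BL/6 and 129/Sv background. Br stands for Brca1 fl/fl, 53 for a floxed Trp53 with intact Brca1, and Br53 for both. The floxed Trp53 is Trp53 fl/+ in the study's methods but Trp53 fl/fl in a supplementary legend, and the labels give only the group codes. In either case Cre was in every group, and no group was free of a floxed allele. The luminal mice were 3 to 4 months old, with 3 virgin mice (vBrL, vBr53L and v53L) and 4 mice at pregnancy day 12.5 (pBrL-1, pBrL-2, pBr53L and p53L). The 4 tumors (BrT1, BrT2, Br53T1 and Br53T2) were each about 1 cm across. The labels give no age for the tumor mice, and the study reports that tumors of Brca1 fl/fl mice arise at an older age than that of these luminal mice. Both kinds of sample went through the same depletion of blood and endothelial cells. Luminal cells were then sorted as living CD24 high, CD29 low cells with the green signal of the mT/mG reporter, which marks cells where Cre has acted. Tumor cells were sorted as living CD24+ cells, and no gate on CD29 or the reporter is stated for them. The labels do not name the mouse of a cell. Each group was taken as 1 mouse except pBrL. Its cells carry the title prefix SC5 or SC6 and were taken as mice pBrL-1 and pBrL-2 by that prefix. If these were 1 mouse, they would not be replicates. The p-values measure the spread between mice taken in this way, over genotypes. The title prefix was also taken as the C1 chip, which the labels do not name. By it both 53 mice shared chip SC9, vBr53L shared chip SC7 with pBr53L, and pBrL-2 shared chip SC6 with Br53T2. The other mice had a chip each.

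Milk is made by alveolar luminal cells, which form during pregnancy under progesterone and prolactin. Prolactin binds its receptor Prlr and activates the transcription factor Stat5a, which works with Elf5 and the glucocorticoid receptor on milk protein genes. Casein genes come on early in this program and the whey genes come on later, with full secretion only after birth. Wap codes for whey acidic protein, the main whey protein of mouse milk. Lalba codes for alpha-lactalbumin, which joins the galactosyltransferase B4galt1 to form lactose synthase, the enzyme that makes milk sugar. Glycam1 codes for a small secreted mucin-like protein of milk, which was first known from the high endothelial venules of lymph nodes as a ligand of L-selectin.

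In GENCODE vM21 on GRCm38 (mm10) Wap lay on chromosome 11 at 6635482 to 6638637, Lalba on chromosome 15 at 98480400 to 98482721 and Glycam1 on chromosome 15 at 103562759 to 103565081. All 3 were on the minus strand, had 4 exons in the principal transcript and overlapped 0 other annotated genes. Their principal transcripts were 551, 771 and 628 bases long. The DNA just before each transcript start is shown because members of this pathway are read out through Stat5, whose textbook recognition motif is TTCNNNGAA. The bases come from RefSeq promoter windows on GRCm38.p6, are written 5′ to 3′ on the minus strand and end at the base before the GENCODE start, with a motif match in capitals.
Glycam1, chr15:103565082-103565331: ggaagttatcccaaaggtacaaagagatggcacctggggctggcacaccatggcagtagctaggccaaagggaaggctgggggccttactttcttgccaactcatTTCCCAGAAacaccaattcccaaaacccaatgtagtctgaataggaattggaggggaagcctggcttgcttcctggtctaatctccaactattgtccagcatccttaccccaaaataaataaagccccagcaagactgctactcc
Wap, chr11:6638638-6638899: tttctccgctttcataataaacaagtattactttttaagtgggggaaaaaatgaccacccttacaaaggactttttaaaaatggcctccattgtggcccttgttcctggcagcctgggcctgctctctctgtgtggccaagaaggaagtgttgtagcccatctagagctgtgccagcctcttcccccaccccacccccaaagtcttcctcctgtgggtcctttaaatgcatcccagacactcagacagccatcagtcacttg
Lalba, chr15:98482722-98482933: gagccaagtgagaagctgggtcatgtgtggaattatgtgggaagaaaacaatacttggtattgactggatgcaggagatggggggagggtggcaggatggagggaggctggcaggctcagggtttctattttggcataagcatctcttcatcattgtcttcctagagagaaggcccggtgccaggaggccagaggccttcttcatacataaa
The Glycam1 window held 1 match, TTCCCAGAA, which began 145 bases before the start. The windows of Wap and Lalba held 0 matches. Of all 32851 windows of 300 bases, 8.30% held the motif, which reads the same on both strands. A match is a description of the letters and no match says only that they are not in this window.

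Depth per mouse was 40.3 to 116 M reads (M, 1000000 reads), and a cell had 170209 to 3550564 reads. Values per mouse are CPM, the reads of a gene summed over the cells of the mouse and scaled to a fixed library total. In such sums fewer cells with the RNA and less RNA per cell cannot be told apart, so shares of cells are given as well, with every cell thinned to 100000 reads. Luminal markers were read in all 7 luminal mice, with Krt18 at 3089 to 6014 CPM. The 6 luminal markers summed to 7404 to 12856 CPM in these mice, against 633 to 6135 CPM in the tumors. The genes that define high endothelial venules, the other known source of Glycam1, gave 0 reads for Fut7, Madcam1 and Ackr1 in all 11 mice. Of the other 3 genes of that list, Sele was at 0 in 10 mice with 1.64 CPM in pBr53L. Chst4 was at 0 in 9 mice, with 0.00993 CPM in pBr53L and 0.936 CPM in Br53T2, the tumor that had Glycam1 reads. Plvap, which is also made by other endothelial cells, had reads in all 7 luminal mice, at 0.130 to 5.75 CPM, and up to 49.6 CPM in BrT2. The part of such cells in the Glycam1 reads was not tested.

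Glycam1 was near 0 in virgin luminal cells and the highest of the 3 genes at pregnancy day 12.5. Among virgin mice, vBrL had 15.5 CPM, vBr53L had 5.96 and v53L had 0. The pregnant mice had 3614 CPM in pBrL-1, 2717 in pBrL-2, 5044 in pBr53L and 6209 in p53L. Every pregnant mouse was far above every virgin mouse, with means of 4396 ± 1543 (SD, n = 4) and 7.15 ± 7.81 (SD, n = 3), a ratio of 615. Within chip SC7, pBr53L was 847 times as high as vBr53L. On chip SC9 v53L had 0 reads while p53L had 284612 reads, and against a floor of 3 reads in the v53L library Glycam1 was at least 83494-fold higher in p53L.

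Wap was also higher in every pregnant than in every virgin mouse. Its virgin levels were 0.635 CPM for vBrL, 26.3 for vBr53L and 18.7 for v53L. In pregnancy it had 244 CPM in pBrL-1, 216 in pBrL-2, 431 in pBr53L and 444 in p53L. The means were 334 ± 120 (SD, n = 4) and 15.2 ± 13.2 (SD, n = 3), a ratio of 22. In pregnancy Wap was below Glycam1 in all 4 mice, and in virgin mice it was above Glycam1 in vBr53L and v53L and below it in vBrL. The ratio was 16.4 within chip SC7 and 23.8 within chip SC9. Against vBrL, which had only 44 reads, pBrL-1 was 384 times and pBrL-2 341 times as high.

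Lalba had another pattern. The highest of all 11 mice was a virgin, v53L, at 698 CPM, whereas the virgin vBrL had 18.1 and vBr53L had 14.1. The pregnant mice lay close together, at 195 CPM in pBrL-1, 144 in pBrL-2, 220 in pBr53L and 196 in p53L. The groups therefore overlapped, and their means were 189 ± 31.9 (SD, n = 4) and 243 ± 394 (SD, n = 3). Pregnant mice were 7.95 to 15.6 times as high as the virgin of their genotype in Br and Br53, but p53L had 0.280 times the level of v53L on the same chip.

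**Figure D1:**
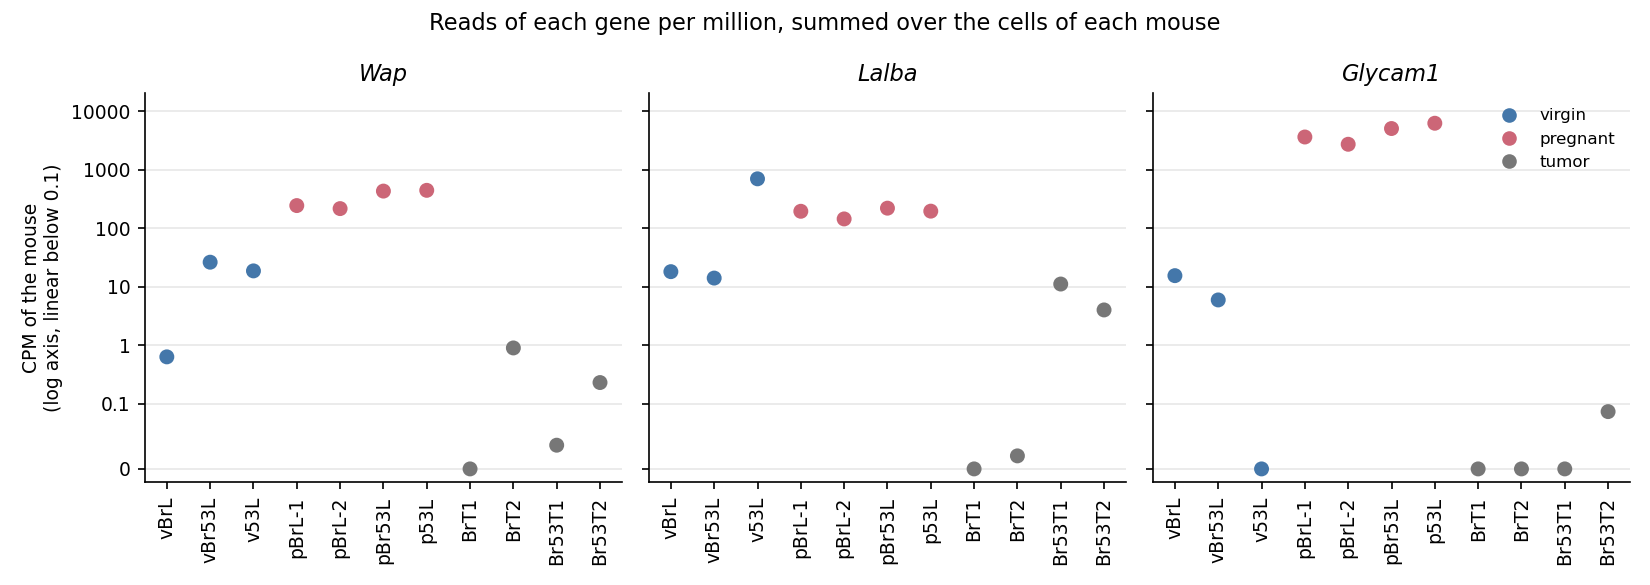
Level of Wap, Lalba and Glycam1 in each of the 11 mice, as CPM on a log axis that is linear below 0.1, with points coloured by virgin, pregnant or tumor. The 4 pregnant mice sit above the 3 virgin mice for Wap and for Glycam1, while for Lalba v53L is the highest point at 698 CPM.

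In edgeR on the 7 luminal mice, with genotype as covariate, none of the 3 genes was called at a Benjamini-Hochberg adjusted p under 0.05. The log2 difference of pregnant over virgin was 9.67 ± 1.89 (SE) for Glycam1 (adjusted p = 0.216), 5.61 ± 0.96 for Wap (adjusted p = 0.173) and 2.33 ± 1.23 for Lalba (adjusted p = 0.604). This test called 2 of 12615 genes (0.0159%), both lower in pregnancy, and 1229 had an unadjusted p under 0.05, among them Glycam1 (0.00110) and Wap (0.000480). Of the tested genes 6.32% were higher in every pregnant mouse than in every virgin mouse, which Glycam1 and Wap were and Lalba was not. DESeq2 called 967 genes (7.67%) and all 3 members, at adjusted p = 7.63e-13 for Glycam1, 7.58e-13 for Wap and 0.0464 for Lalba. With chip as a block instead of genotype, edgeR called 42 genes (0.333%), among them Wap (4.38, adjusted p = 0.0119) and Glycam1 (12.78, adjusted p = 0.0213) but not Lalba (1.15, adjusted p = 1.00). That fit takes the stage effect from the 2 pairs that share chip SC7 or SC9 and leaves 1 residual degree of freedom, and the fitted size for Glycam1 includes the 0 reads of v53L. Without v53L the edgeR difference of Glycam1 was 8.50 (adjusted p = 0.0402), and without p53L it was also 8.50 (adjusted p = 0.0578). Both fits take the stage effect from the Br and Br53 mice, since a genotype left with 1 mouse gives none. The Lalba difference without v53L was 3.55 (adjusted p = 0.113). The Lalba difference was also 3.55 without p53L, but 0.91 without vBr53L, 0.91 without pBr53L and 1.11 without vBrL. Each of these fits loses the stage contrast of 1 genotype, so the genotype that was lost moved the difference both ways.

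Marker lists of other cells were summed beside these values, and those of hormone-sensing luminal, basal, red and fibroblast cells did not overlap between the stages. The fat cell markers did not overlap either, at 0 to 0.0147 CPM in virgin and 0.0218 to 0.570 CPM in pregnant mice, sums of few reads. The 8 hormone-sensing luminal genes were at 960 to 5364 CPM in virgin and 220 to 374 CPM in pregnant mice, with all 7 tested genes lower in pregnancy in edgeR and 0 called. The 6 basal markers went the other way, at 43.8, 69.5 and 0 CPM in vBrL, vBr53L and v53L and at 88.5 to 375 CPM in pregnancy. Red cell markers were at 16.3 to 38.5 CPM in virgin and 0.159 to 3.21 CPM in pregnant mice. The 6 fibroblast markers were at 712, 579 and 176 CPM in vBrL, vBr53L and v53L against 0.117 to 25.4 CPM in the pregnant mice. In the virgin mice nearly all of it was Dcn, which codes for the matrix proteoglycan decorin, at -7.77 ± 1.94 on the log2 scale in edgeR (adjusted p = 0.314). The other 5 markers, which include the collagen genes Col1a1, Col1a2 and Col3a1, were each at 0 to 0.873 CPM in the 7 luminal mice. The part of these shifts in the milk genes was not tested.

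Whether the effect of pregnancy on each gene differed between the 5 Brca1-deficient mice and the 2 Trp53-only mice was asked with an interaction term in edgeR, a test added after the values had been seen. For Lalba the effect was 5.26 ± 0.69 higher on the log2 scale in Brca1-deficient mice (adjusted p = 0.0142), where pregnant mice were higher, than in Trp53-only mice, where the pregnant mouse was lower. For Glycam1 the difference was -13.51 ± 1.57 (adjusted p = 0.00776), a fitted size that rests on the 0 reads of v53L and is no bound. For Wap it was -0.22 ± 1.82 (adjusted p = 1.00). The term called 74 of 15550 genes (0.476%). Each Trp53-only stage was 1 mouse and the spread came from the Brca1-deficient mice alone, so these p-values set the values of v53L and p53L, already seen, against the spread of other mice and do not show a difference between genotypes.

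The caseins, the early milk genes, gave a reference for timing. Csn2, which codes for beta-casein, was at 10544 ± 1125 CPM (SD, n = 3) in virgin mice, the lowest at 9372, so virgin luminal cells already held much casein RNA. It was at 46998 ± 6577 CPM (SD, n = 4) in pregnancy, a ratio of 4.46, with a log2 difference of 2.22 ± 0.29 in edgeR (adjusted p = 0.0983). Csn1s1, Csn1s2a and Csn2 did not overlap between the stages, while Csn1s2b and Csn3 did. All 5 caseins were higher in pregnancy in the fit, with a median log2 difference of 2.22 against 0.12 over all tested genes, and 0 of 5 were called.

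Per kilobase of transcript, which allows genes to be compared, the mean level in pregnancy was 35364 CPM per kb for Csn2, 7000 for Glycam1, 605 for Wap and 245 for Lalba. In virgin mice it was 7934 for Csn2, 11.4 for Glycam1, 27.6 for Wap and 316 for Lalba. By these means Glycam1 was the lowest of the 4 in virgin mice and the second after Csn2 in pregnancy, but in vBrL it was at 24.7 CPM per kb, next to Lalba at 23.5 and above Wap at 1.15. In virgin mice the Lalba mean was carried by v53L at 905 CPM per kb, against 18.3 in vBr53L.

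Set against the summed caseins of the same mouse, Glycam1 and Wap were still higher in pregnancy. The log2 ratio of Glycam1 to the caseins, with 1 CPM added to both, was -11.11 in vBrL, -12.29 in vBr53L and -15.32 in v53L. It was -5.09 in pBrL-1, -5.14 in pBrL-2, -4.65 in pBr53L and -4.80 in p53L, a narrow range in 3 genotypes. The difference of means was 7.98 (exact permutation test over 7 mice, two-sided, p = 0.0286, the smallest that 35 splits allow). For Wap the ratio was -14.44, -10.32 and -11.02 in vBrL, vBr53L and v53L, and -8.98 to -8.20 in the 4 pregnant mice, a difference of 3.28 (exact permutation p = 0.0286). For Lalba it was -10.90, -11.17 and -5.87 in the virgin mice and -9.79 to -9.16 in pregnancy, a difference of -0.09 (exact permutation p = 0.971). Only these 3 ratios were tested, and with 6 mice the design cannot pass 0.05.

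**Figure D2:**
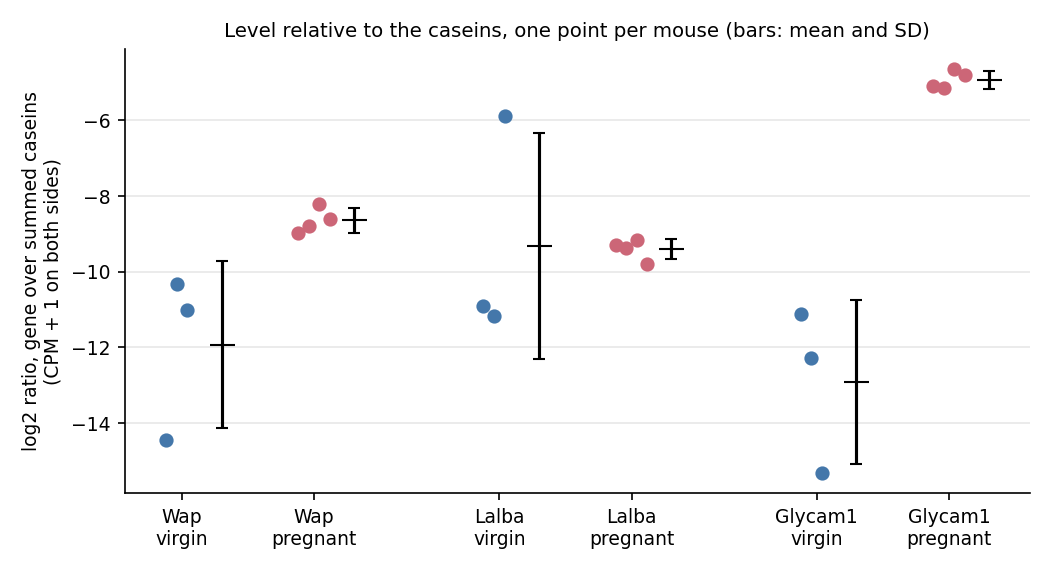
Log2 ratio of each gene to the summed caseins, with 1 CPM added to both, 1 point per luminal mouse and the mean and SD beside the points. Pregnant mice cluster within 0.33 (SD) or less for each gene, at -4.92 for Glycam1, -8.64 for Wap and -9.41 for Lalba, and the virgin mice lie far apart.

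Glycam1 also reached most cells. At 100000 reads per cell it was read in 63 of 71 cells of pBrL-1 (88.7%), 30 of 38 of pBrL-2 (78.9%), 49 of 53 of pBr53L (92.5%, exact 95% interval 81.8 to 97.9) and 34 of 36 of p53L (94.4%). In virgin mice it was read in 2 of 35 cells of vBrL, 2 of 39 of vBr53L and 0 of 40 of v53L, which allows a share of up to 7.50% by the floor of 3 cells. The intervals cover counting error only, since the reads carry no molecular identifiers. The pregnant and virgin intervals did not overlap.

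Wap and Lalba were read in fewer pregnant cells. Wap was read in 41 of 71, 16 of 38, 36 of 53 and 25 of 36 cells of pBrL-1, pBrL-2, pBr53L and p53L, a mean of 59.3 ± 12.6% (SD, n = 4) against 12.9 ± 6.3% (SD, n = 3) in virgin mice. Lalba was read in 46 of 71, 15 of 38, 36 of 53 and 23 of 36 cells, a mean of 59 ± 13.1% (SD, n = 4), against 7 of 35, 5 of 39 and 18 of 40 cells of vBrL, vBr53L and v53L. Thus v53L had a read of Lalba in 45% of its cells, inside the range of the pregnant mice, which had 39.5% in pBrL-2 as the lowest.

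**Figure D3:**
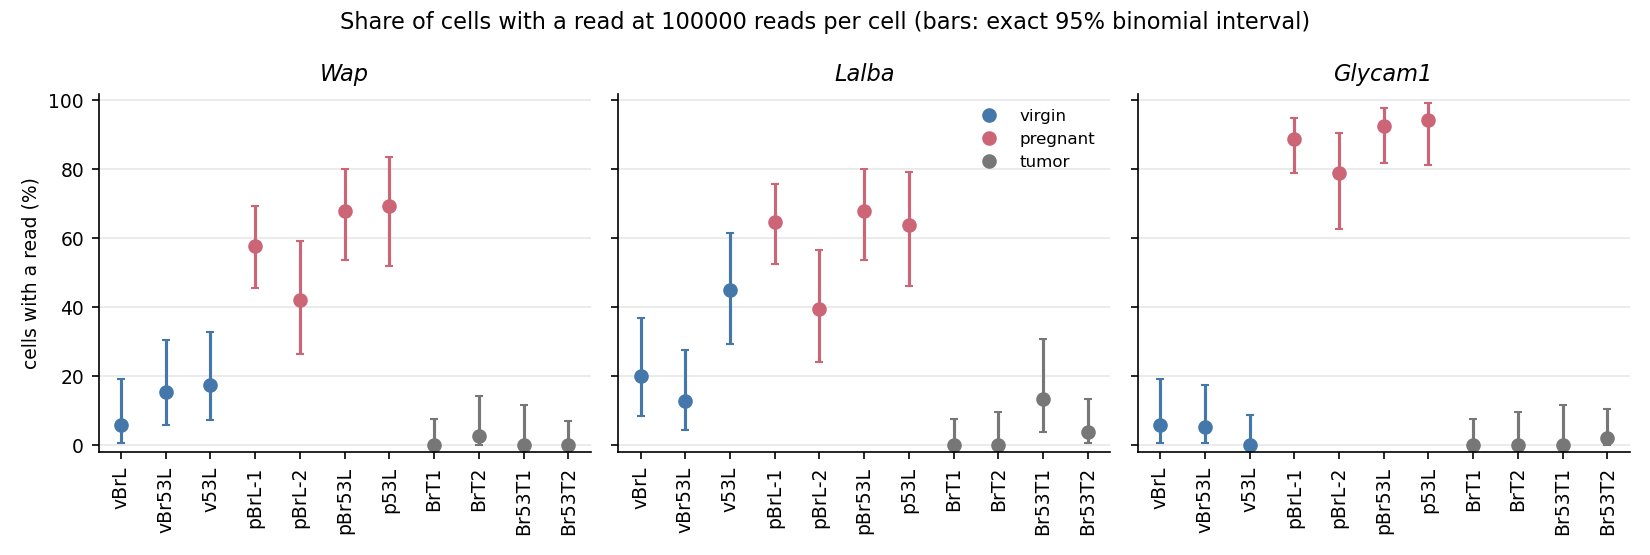
Share of cells with at least 1 read of each gene after thinning to 100000 reads, per mouse, with exact 95% binomial intervals. Glycam1 is read in 78.9 to 94.4% of cells of pregnant mice and in 0 to 5.71% of cells of virgin mice.

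Levels varied widely between the cells of a mouse. In p53L the median cell had 3347 CPM of Glycam1 and the highest 31127, and the 4 highest of 36 cells gave 38.5% of its reads. For Wap the median cell of p53L had 42.4 CPM and the highest 4646, and the top 4 cells gave 61.8% of the reads. For Lalba they gave 63.4%. Wap and Lalba were thus more concentrated in a few cells than Glycam1, which also held in pBrL-1, where the top 8 of 71 cells gave 66.1% of Wap, 58.2% of Lalba and 44.2% of Glycam1 reads.

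In pregnancy the 3 genes were read in overlapping sets of cells. Of 198 pregnant cells, 90 (45.5%) had a read of all 3, 34 had Glycam1 alone, 3 had Lalba alone, 1 had Wap alone and 17 had none. Glycam1 was read in 116 of the 118 cells with Wap (98.3%) and in 116 of the 120 cells with Lalba (96.7%), where 176 of all 198 cells had it. Wap was read in 65.9% of those 176 cells. At this depth 0 of 114 virgin cells had all 3 genes, 78 had none, 15 had Wap, 30 had Lalba and 4 had Glycam1. In v53L all 7 cells with Wap also had Lalba, and in vBr53L 0 of 6 did. Without thinning 1 virgin cell, of vBr53L, had all 3 genes, and 3 of the 8 cells of vBr53L with Wap also had Lalba.

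**Figure D4:**
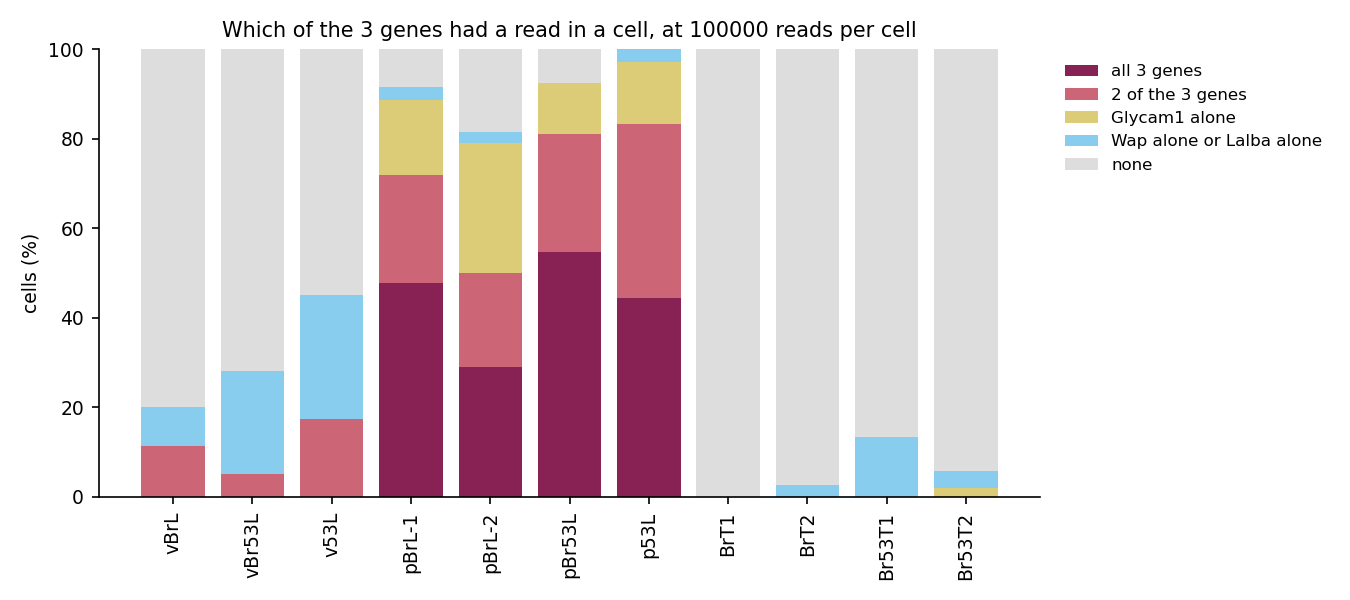
Share of cells in each mouse with reads of all 3 genes, of 2, of Glycam1 alone, of Wap or Lalba alone, or of none, at 100000 reads per cell. Cells with all 3 genes make up 28.9 to 54.7% of cells in the pregnant mice and 0 of the virgin and tumor cells at this depth, while 1 virgin cell has all 3 without thinning.

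Within each pregnant mouse the genes went up and down together across cells. Spearman's rho between Wap and Glycam1 was 0.57 to 0.81 over the 4 mice (mean 0.68), between Lalba and Glycam1 0.42 to 0.65 (mean 0.53) and between Wap and Lalba 0.34 to 0.67 (mean 0.52). These are descriptions over 36 to 71 cells that share a library scale. Glycam1 and the summed caseins had rho of 0.62 to 0.85, while Glycam1 and the reads per cell had 0.07 to 0.31. Elf5, a driver of alveolar cells, had rho of 0.15 to 0.32 with Glycam1 and -0.06 to 0.43 with Wap.

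Among 7515 genes compared, those nearest to each member in pregnant cells, by the mean within-mouse rho over 4 mice, were mostly milk genes. For Glycam1 they were Csn2 (0.71), Fabp3 (0.69), Wap (0.68), Csn1s2a (0.68) and Csn1s1 (0.67). For Wap they were Glycam1 (0.68), Lao1 (0.65), Fabp3 (0.64), Csn2 (0.63) and Spp1 (0.60). For Lalba they were Lao1 (0.63), Csn2 (0.61), Fabp3 (0.61), Csn1s2a (0.61) and Csn3 (0.59). Fabp3 carries fatty acids and Lao1 is an L-amino acid oxidase of milk, and both were in all 3 lists. Over the 11 mice, by Pearson's r of log2(CPM + 1) among 8700 genes, the nearest were Cd36 (0.99) and Fkbp11 (0.98) for Glycam1, Fabp3 (0.98) and Chrdl2 (0.95) for Wap, and Mxd1 (0.95) and Rab7b (0.94) for Lalba. The mice share their stage, so these r describe the same split of groups.

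Cells of like casein level were also set side by side. In cells with 10000 to 100000 CPM of summed caseins, bounds set after the values had been seen, Glycam1 was read in 76% of cells of pBrL-1, 75% of pBrL-2, 88.2% of pBr53L and 88.9% of p53L. In the virgin mice it was read in 4.76% of such cells of vBrL, 3.57% of vBr53L and 0 of 12 of v53L. The mice of the 2 stages did not overlap for Glycam1, over 9 to 28 cells a mouse. For Wap they did, with 36%, 18.8%, 35.3% and 33.3% in pBrL-1, pBrL-2, pBr53L and p53L against 9.52%, 17.9% and 25% in vBrL, vBr53L and v53L. Lalba was read in 23 of 67 pregnant and 21 of 61 virgin cells at this casein level, but 10 of the 21 virgin cells were from v53L, where it was read in 10 of 12 such cells, against 6 of 21 in vBrL and 5 of 28 in vBr53L. Above 100000 CPM of caseins, Glycam1 was read in 121 of 123 pregnant cells and 2 of 10 virgin cells, which were 1 of 1 in vBrL, 1 of 2 in vBr53L and 0 of 7 in v53L.

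The Lalba of v53L lay in its casein-rich cells. Of its 40 cells, 9 had over 1000 CPM of Lalba, up to 3463, while each of the 4 pregnant mice had only 2 such cells. All 7 cells over 100000 CPM of caseins had Lalba, with a median of 3053 CPM, and 0 of the 7 had Glycam1. Over the 40 cells Lalba had rho of 0.81 with the summed caseins, 0.70 with Elf5 and 0.72 with Spp1, the osteopontin gene. It had -0.68 with Prlr, -0.62 with the progesterone receptor Pgr and -0.54 with the estrogen receptor Esr1, which mark the hormone-sensing luminal cells. Lalba was read in 13 of the 18 cells without a Pgr read and in 5 of the 22 cells with one. The v53L mouse also had the highest summed level of the 8 hormone-sensing genes, 5364 CPM against 960 to 1868 in the other virgin mice and 220 to 374 in the pregnant mice, and the fewest reads per cell (median 1044324 against 1300453 to 2173739 in the other luminal mice). Their part in the level of Lalba was not tested.

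**Figure D5:**
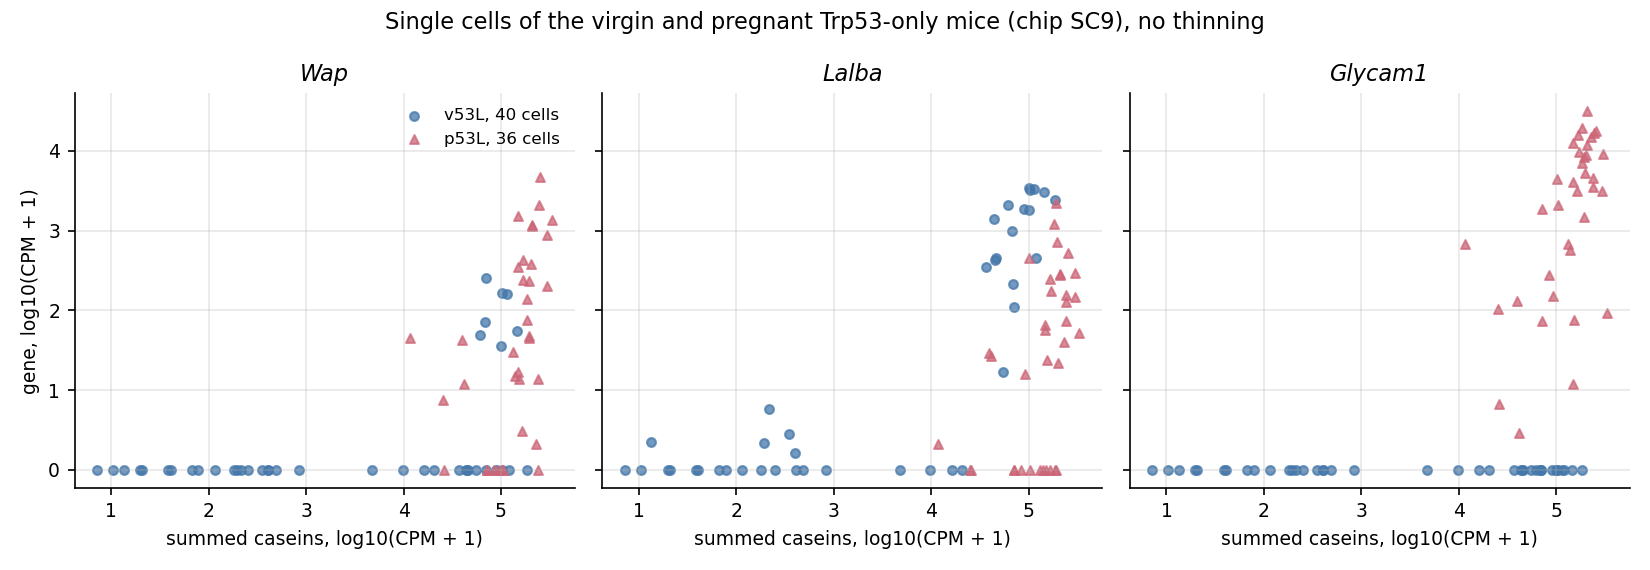
Single cells of v53L (40 cells, circles) and p53L (36 cells, triangles), captured on the same chip, with the summed caseins on the x axis and each gene on the y axis, both as log10(CPM + 1) without thinning. Casein-rich v53L cells hold Lalba, up to 3463 CPM, and some Wap, but all 40 lie at 0 for Glycam1, where all 36 cells of p53L lie above 0.

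Brca1-deficient and Trp53-only luminal mice were compared over the 7 mice with stage as covariate. The log2 difference was -3.79 ± 1.16 (SE) for Lalba (edgeR adjusted p = 0.778), -0.69 ± 0.91 for Wap (adjusted p = 0.888) and 0.62 ± 1.42 for Glycam1 (adjusted p = 0.938). The edgeR test called 0 of 13709 genes (0.0%), with 818 at an unadjusted p under 0.05, and DESeq2 called 518 (3.78%) with Lalba among them (adjusted p = 0.000374). The Lalba difference rested on v53L: without that mouse it was -0.28 and without p53L it was -5.55 (adjusted p = 0.00305). For Glycam1 it was -0.92 without v53L and 12.70 without p53L (adjusted p = 0.00832), since p53L is the only Trp53-only mouse with reads. Each of these leaves 1 Trp53-only mouse, whose value was already known, and the spread then comes from the Brca1-deficient mice alone, so these p-values do not show a difference between genotypes. With 2 Trp53-only mice on 1 chip, genotype and chip cannot be told apart.

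Glycam1 and Wap were at or close to 0 in tumors, and Lalba in BrT1 and BrT2. Glycam1 had 0 reads in BrT1, BrT2 and Br53T1, and 8 reads (0.0881 CPM) in Br53T2, spread over 6 cells of the chip shared with pBrL-2. The part of that chip in these reads was not tested. Wap had 0 reads in BrT1, 45 in BrT2 (0.902 CPM), all in 1 cell, 2 in Br53T1 (0.0364 CPM) and 21 in Br53T2 (0.231 CPM). Lalba had 0 reads in BrT1, 1 in BrT2 (0.0200 CPM), 611 in Br53T1 (11.1 CPM, in 4 of 30 cells) and 365 in Br53T2 (4.02 CPM, in 2 of 51 cells). Br53T1 thus lay near vBr53L, the virgin luminal mouse with the same genotype code, with Lalba in 13.3% against 12.8% of cells and 11.1 against 14.1 CPM. At 100000 reads per cell, 157 of 165 tumor cells had none of the 3 genes.

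Glycam1 was lower in every tumor than in all 5 Brca1-deficient luminal mice, whose lowest was 5.96 CPM in vBr53L, and so was Lalba, with 14.1 CPM in vBr53L against 11.1 in Br53T1. Wap overlapped, since vBrL at 0.635 CPM was below BrT2. In edgeR the log2 difference of tumor over Brca1-deficient luminal was -16.52 ± 2.76 (SE) for Glycam1 (adjusted p = 0.0333), a fitted size with 3 tumors at 0 reads and so no bound, -9.38 ± 2.07 for Wap (adjusted p = 0.0652) and -5.15 ± 1.80 for Lalba (adjusted p = 0.229). Glycam1 was thus called lower, 1 of the 3 genes, where the test called 28 of 12978 genes lower (0.216%) and 2.51% of genes were lower in every tumor without overlap. Against the 2 virgin Brca1-deficient mice alone Glycam1 was no longer called (-8.93, adjusted p = 0.427), and leaving out any 1 of the 4 tumors or 3 pregnant mice gave adjusted p of 0.0621 to 0.0735. DESeq2 called all 3 lower, as it did 309 of 12978 genes (2.38%), with adjusted p = 1.42e-06 for Wap and 0.0426 for Lalba.

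The tumors were also lower in caseins and differed in lineage genes. Csn2 had 0 reads in BrT1 and 0.0401, 25.2 and 873 CPM in BrT2, Br53T1 and Br53T2. Csn3, which codes for kappa-casein, had 4.39 CPM in BrT1 but 3731, 3019 and 1634 CPM in BrT2, Br53T1 and Br53T2. Thus 3 of the 4 tumors still held much Csn3 RNA, and in the Br53 tumors it was not the only casein left. Csn1s1 was at 0, 6.47, 603 and 880 CPM in BrT1, BrT2, Br53T1 and Br53T2. Among the tumors Csn1s2a was highest in Br53T2, at 406 CPM. All 5 caseins were below every Brca1-deficient luminal mouse, though 0 of 5 were called, with a median log2 difference of -5.65 against 0.06 over all genes. The 6 luminal markers summed to 633 CPM in BrT1 and 4319 to 6135 in the other tumors, against 7404 to 12856 in luminal mice. The 6 fibroblast markers summed to 4955 CPM in BrT1 and 0.140 to 96.5 in the other tumors, against 712 in vBrL, 579 in vBr53L and 0.117 to 25.4 in the 3 pregnant Brca1-deficient mice. The 6 basal markers summed to 5335 CPM in Br53T2, 274 in Br53T1, 24.4 in BrT1 and 21 in BrT2, against 43.8 to 375 in the Brca1-deficient luminal mice, and all 6 were higher in tumors in the fit with 0 called. The study found high Vim, a mesenchymal marker, in almost all BrT1 cells. Whether these sums come from other cells or from the tumor cells was not tested, nor was their part in the low milk genes. The part of age was not tested either, nor that of chip, which only Br53T2 shared with luminal cells.

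Other genes of milk secretion, from lists chosen for this pathway, varied. Of 14 tested genes for other whey and secreted milk proteins 0 were called in pregnancy and 10 were higher, with Pigr, the carrier of antibodies into milk, at 3.00 ± 0.36 (edgeR adjusted p = 0.0829), and with a median of 1.16 against 0.12 over all genes. In tumors Cel, the bile salt-stimulated lipase of milk, fell by 12.76 on the log2 scale (edgeR adjusted p = 0.00132). Cel was at 0.0110, 0, 0 and 0.0550 CPM in BrT1, BrT2, Br53T1 and Br53T2, so this fitted size is no bound. Chrdl2 fell by 11.88 (edgeR adjusted p = 0.0367). Both were called, of 14 tested, where the test called 0.216% of all genes lower. The 11 genes of lactose synthesis had 0 calls in either comparison, and B4galt1, the partner of Lalba, was at 0.76 ± 0.33 in pregnancy (adjusted p = 0.519) and -1.52 ± 0.46 in tumors (adjusted p = 0.174). Of 6 tested mucins 0 were called, and Muc15, a mucin of the milk fat globule, was at 1.98 ± 0.62 in pregnancy (adjusted p = 0.423).

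The prolactin and Stat5 genes did not move as a block. Of 15 tested in pregnancy 8 were higher and 0 were called. Elf5 was at 36.7, 170 and 5.90 CPM in vBrL, vBr53L and v53L, and at 1063, 808, 456 and 135 CPM in pBrL-1, pBrL-2, pBr53L and p53L, so the stages overlapped, with a log2 difference of 3.76 ± 0.72 (edgeR adjusted p = 0.216). Cish, a Stat5 target that damps the signal, had 22 to 49.2 CPM in virgin and 72.7 to 207 CPM in pregnant mice, without overlap (1.91 ± 0.51, adjusted p = 0.334). Prlr itself was lower, at -2.82 ± 0.42 (adjusted p = 0.139). In tumors 0 of 16 were called, with Elf5 at -4.40 ± 1.55 (adjusted p = 0.232).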

How the data were processed

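Luminal and tumor cells, taken as those of 11 mice, were measured by single-cell RNA sequencing. Per the submitters' processing notes and the methods, the authors filtered reads for quality and length with sickle, trimmed them with Trim Galore 0.4.1, aligned them to mm10 with STAR 2.5.3a and counted them with Subread 1.5.3, and what they deposited is a table of raw read counts, 1 row a gene and 1 column a cell, without molecular identifiers. The annotation and strand setting of the counting were not given in the sources used here. The authors checked capture sites for doublets by microscope, and none were called again.

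Counts were summed per mouse (40.3 to 116 M reads) and fitted over all genes with edgeR 4.0.16 in R 4.3.3 (quasi-likelihood test, filterByExpr, TMM, Benjamini-Hochberg adjusted p under 0.05). DESeq2 1.42.0, limma 3.58.1 and other settings were alternatives. The edgeR step was tested on simulated data. Ratios to the caseins, with a pseudocount of 1 CPM, were compared by exact permutation over mice. Shares used cells thinned to 100000 reads with exact (Clopper-Pearson) 95% intervals, and a floor of 3 counts stood for 0.

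The members, the gene lists and the tests were chosen with earlier results of these data known. Named were the members, genes of the lists, and the 5 genes most like each member (mean of at least 10 CPM, and a read in at least 20% of pregnant cells for the cell measure, gene models left out), of which the 2 nearest over mice are printed. All 3 members matched RefSeq promoter windows by symbol. Marker lists of other cell types served only as checks. Beside those given with the results, endothelial markers summed to 1.97 to 34.4 CPM in the 7 luminal mice and immune markers to 7.86 to 250 CPM.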

Additional observations from a re-analysis of the deposited data

Results flagged for a closer look

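Groups of 4 mice were screened for 1 mouse far from the other 3, by Dixon's ratio of gap to range, in 12 sets of values, and 4 stood out. Chance gives about 5% of sets, but that rate does not hold for 3 of the 4, tumor sets in which 3 mice were at exactly 0 and any value above 0 stands out. The share of pBrL-2 cells with a Lalba read, 39.5%, was far below the 63.9 to 67.9% of the other pregnant mice. In tumors, Wap was read in 2.70% of BrT2 cells, while no cell of the other 3 tumors had a read after thinning. Glycam1 was at 0.0881 CPM in Br53T2 and read in 1.96% of its cells, while the other 3 tumors had 0 reads, and both values come from the same 8 reads.

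An interaction term in edgeR, added after the values had been seen and with 1 Trp53-only mouse at each stage, set the effect of pregnancy in Brca1-deficient against Trp53-only mice. The log2 difference of effects was 5.26 for Lalba (adjusted p = 0.0142) and -13.51 for Glycam1 (adjusted p = 0.00776), the latter resting on the 0 reads of v53L. Lalba was higher in pBrL-1 and pBrL-2 than in vBrL, their shared control, and higher in pBr53L than in vBr53L, but lower in p53L than in v53L. With single mice this does not show a difference between genotypes.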

How the results depend on the processing

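No paired analysis was possible because the replicate numbers run only within a group and all groups but pBrL were taken as 1 mouse. The chips that 2 virgin and pregnant pairs shared entered as a block instead. For pregnancy, DESeq2 (Wap 5.58, Lalba 2.30, Glycam1 9.69) and edgeR without a low-count filter (5.62, 2.34 and 9.69) called all 3 genes. Limma on the mean CPM over cells (Wap 5.35, Glycam1 9.59) and a fit blocked on chip instead of genotype (4.38 and 12.78) called Wap and Glycam1. Without genotype as covariate Lalba turned to -0.40. The number of genes called was 2, against 366 without the filter, 967 by DESeq2, 40 by limma, 10 with 30 cells drawn per mouse, 17 without genotype, 42 with the chip block and 0 in the 5 Brca1-deficient mice alone, an alternative added after seeing the data. Leaving out each mouse gave 8.50 to 12.58 for Glycam1. It was called only without v53L, though the edgeR fit without p53L takes the stage effect from the same mice (8.50, adjusted p = 0.0578). Genes called were 0 to 4, with 0 when pBr53L, vBrL or either pBrL mouse was dropped and 4 when vBr53L was.

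For tumors, Wap was called without the filter (-9.39), by DESeq2 (-9.34), by limma (-5.63), against all 7 luminal mice (-9.61) and against the 3 pregnant Brca1-deficient mice (-10.08). Lalba was called by DESeq2 (-5.15) and limma (-4.62). Glycam1 lost its call against the 2 virgin Brca1-deficient mice (-8.93). The genes called were 79, against 129 without the filter, 808 by DESeq2, 352 by limma, 124 by library size alone (added after seeing the data), 213 against 7 luminal mice, 44 against 3 pregnant and 0 against 2 virgin mice. Leaving out each mouse gave -11.15 to -8.75 for Wap, called only without vBrL (-9.70), -20.50 to -15.97 for Glycam1, whose call was lost on dropping any tumor or pregnant mouse, and 11 to 94 genes called (50 when BrT1 was dropped, 44 for BrT2, 29 for pBrL-2, 19 for pBr53L and 11 for pBrL-1).

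For Brca1 deficiency, Lalba was called by DESeq2 (-3.83), and Glycam1 turned to -0.65 without stage as covariate. Genes called were 0, against 10 without the filter and 518 by DESeq2. Leaving out each mouse gave -5.55 to -0.28 for Lalba, -0.92 (without v53L) to 12.70 (without p53L) for Glycam1, and 0 to 127 genes called (127 without p53L, 2 without v53L). The cause of these shifts was not tested.

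The ratio to caseins was also taken with Csn2 alone, a pseudocount of 10 CPM or mean CPM over cells. Its difference was then 2.11 to 3.20 for Wap, 6.27 to 7.90 for Glycam1 and -0.47 to -0.05 for Lalba. The main pseudocount of 1 CPM was above Wap in vBrL (0.635 CPM) and Glycam1 in v53L (0 CPM). The ratio kept its direction for Wap (2.03 to 4.09) and Glycam1 (6.78 to 8.88) on dropping any 1 mouse, and the exact permutation p was then 0.0667 or 0.1, the smallest 6 mice allow. That of Lalba went from -1.02 to 1.63 and was above 0 without v53L (1.63) and without p53L (0.03). Shares depended on depth. Counting only cells with 10 reads, the mean share in pregnant mice was 38% for Wap, 35.9% for Lalba and 78.1% for Glycam1. Without thinning that of Glycam1 was 97.2% in pregnant, 7.03% in virgin and 2.94% in tumor mice, and that of Wap in tumors 3.47%. In all, 195 of 279 alternative values kept their direction and their side of the threshold, or stayed within the limits set for counts and shares. Intervals between mice are wide with 1 mouse per group, and low counts limit Wap in vBrL and all 3 genes in tumors.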

Other observations

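The few Glycam1 reads of virgin mice lay in single cells. In vBrL 2 of 35 cells held all 1073 reads, with 492 CPM in the higher one, and that one had over 100000 CPM of summed caseins. In vBr53L 405 reads lay in 6 of 39 cells before thinning, with 135 CPM at most. Lalba in vBrL was read in 13 of 35 cells before thinning, up to 244 CPM.

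B4galt1, the enzyme partner of Lalba, varied with the members across pregnant cells, with rho of 0.29 to 0.61 with Lalba, 0.30 to 0.66 with Glycam1 and 0.29 to 0.64 with Wap over the 4 mice. In v53L, where Lalba was highest, its rho with B4galt1 was 0.21. Wfdc18, another whey protein gene, had rho of -0.25 to 0.34 with Lalba in the pregnant mice.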
